A study of Mus musculus with 20 samples.

Results

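Chromatin sites of SOCS1 in wild-type (WT) mouse macrophages after 8 h of lipopolysaccharide (LPS) were set against those after 30 min. The members were the peaks that the study's authors called with the SOCS1 antibody at each of these times, 13720 at 8 h and 19631 at 30 min, 33351 of the 258959 peaks in the 12 lists of the study. A peak was counted as called at both times where it overlapped a peak of the other list by at least 1 bp, and as called at 1 time only otherwise, which gave 28037 distinct sites. The cells were bone-marrow-derived macrophages (BMDM) of WT mice, for which the series names the strain as C65BL6. They were grown from marrow with the growth factor MCSF and given 100 ng/mL LPS in culture. Both groups shared this background and differed in time with LPS alone, each was 1 library, and nothing in the labels says how many animals were pooled. Sites were mapped by CUT&RUN, in which an antibody tethers a nuclease to chromatin and the released fragments are sequenced, here after a brief formaldehyde fixation. Other lists used for comparison came from untreated WT cells (control), from knockout (KO) cells with or without LPS, and from the p65 antibody. The disrupted gene is given as NOS1 in the design text, but the title is about SOCS1, and the sources used here do not settle whether the KO cells lack SOCS1.

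SOCS1 (suppressor of cytokine signalling 1) is an inducible inhibitor that binds JAK kinases and limits signalling by interferons and other cytokines, and it has also been described as helping to mark nuclear p65 for degradation. LPS is sensed by TLR4. It activates NF-κB, whose subunit p65 reaches chromatin within minutes, and induces interferon beta, which then acts through a factor containing STAT2 and IRF9 on genes that carry interferon-stimulated response elements (ISREs). The interferon response therefore follows the first NF-κB wave, and SOCS1 itself is one of the genes it induces.

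With 1 library a time, no test between the times was possible, and the intervals below are exact 95% counting intervals that leave out variation between cultures. The libraries held 9.51 M tags at 8 h and 9.74 M at 30 min, of which 86.0% and 65.2% were left after the authors' limit of 1 tag per bp, so more tags were repeats at 30 min. Over the peaks, the authors' fold of tags over the clonal expectation had a median of 1.15 at 8 h and 1.48 at 30 min. Of all tags, 3.30% lay in peaks at 8 h and 5.41% at 30 min. A peak needed at least 10 tags at 8 h and 8 at 30 min, or 12.2 and 12.6 per 10 M tags kept. Absence from a list therefore does not show that SOCS1 was absent there. Macrophage identity genes with a site within 10 kb numbered 16 of 20 at 8 h and 17 at 30 min, against 4 of 20 neuronal and hepatic genes at each time. Markers of neutrophils numbered 5 and 7 of 12, those of lymphocytes 8 and 6 of 14, and those of dendritic cells 7 and 8 of 10. Over all protein-coding genes the shares were 38.6% at 8 h and 47.7% at 30 min, near those of the neutrophil markers and below those of the dendritic cell markers. A peak near a gene does not measure its expression, so these counts check the label only loosely.

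The sequences behind the clearest difference are promoters of interferon-stimulated genes with a SOCS1 peak at 8 h and either none or a weaker one at 30 min, shown beside 2 heat shock promoters with more tags at 30 min. Each line gives the 250 bases before the annotated start of the gene, 5′ to 3′ on the gene's strand, from RefSeq on GRCm38.p6, the assembly of mm10. Capitals mark the ISRE core GAAANNGAA on either strand in the first 4 promoters, CCAAT on either strand in Hsph1, and the palindromic heat shock element core GAANNTTC in Hspa1a. Ifit1 lies on the plus strand (chr19:34640639-34640888), Isg15 on the minus strand (chr4:156200819-156201068), Gbp5 on the plus strand (chr3:142496684-142496933) and Gbp2 on the plus strand (chr3:142620413-142620662). Hsph1 (chr5:149636316-149636565) and Hspa1a (chr17:34972157-34972406) lie on the minus strand.
Ifit1: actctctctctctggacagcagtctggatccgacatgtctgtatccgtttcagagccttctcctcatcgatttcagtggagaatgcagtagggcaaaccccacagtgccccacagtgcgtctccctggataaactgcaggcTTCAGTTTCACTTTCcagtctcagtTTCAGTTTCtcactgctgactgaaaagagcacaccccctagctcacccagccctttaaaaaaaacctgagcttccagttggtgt
Isg15: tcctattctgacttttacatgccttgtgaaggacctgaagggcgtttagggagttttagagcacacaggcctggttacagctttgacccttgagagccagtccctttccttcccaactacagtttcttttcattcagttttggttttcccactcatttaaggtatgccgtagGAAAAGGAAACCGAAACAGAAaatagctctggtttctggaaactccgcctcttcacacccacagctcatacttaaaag
Gbp5: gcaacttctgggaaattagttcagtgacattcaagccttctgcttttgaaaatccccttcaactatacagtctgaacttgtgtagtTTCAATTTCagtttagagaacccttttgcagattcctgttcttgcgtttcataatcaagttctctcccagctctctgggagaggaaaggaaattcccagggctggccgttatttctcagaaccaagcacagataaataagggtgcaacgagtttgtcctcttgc
Gbp2: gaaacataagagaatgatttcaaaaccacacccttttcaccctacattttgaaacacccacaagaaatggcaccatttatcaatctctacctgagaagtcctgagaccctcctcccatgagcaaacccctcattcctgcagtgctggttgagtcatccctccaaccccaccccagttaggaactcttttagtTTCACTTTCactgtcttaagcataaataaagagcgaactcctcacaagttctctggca
Hsph1: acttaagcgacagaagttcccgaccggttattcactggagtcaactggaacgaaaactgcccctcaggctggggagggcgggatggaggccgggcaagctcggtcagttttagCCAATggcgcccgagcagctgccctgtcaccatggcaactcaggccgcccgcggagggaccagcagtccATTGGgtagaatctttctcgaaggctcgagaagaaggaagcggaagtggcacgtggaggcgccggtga
Hspa1a: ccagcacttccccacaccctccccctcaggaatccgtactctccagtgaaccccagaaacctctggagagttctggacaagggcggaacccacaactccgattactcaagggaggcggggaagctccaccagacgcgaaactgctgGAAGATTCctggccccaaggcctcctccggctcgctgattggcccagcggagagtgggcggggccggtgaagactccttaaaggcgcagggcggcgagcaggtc

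The Isg15 promoter carries 3 overlapping ISRE cores, the farthest beginning 78 bases before the start, and 2 of them lie wholly inside the 8 h peak. Ifit1 also carries 3, but its 8 h peak begins just past the start of the gene and covers none of them. The Gbp5 and Gbp2 promoters hold 1 core each, and it lies outside the called peaks although these reach into the 250 bases shown. Positions of letters and peaks are a description only, since the peaks are 260 bp wide at 8 h and 226 bp wide at 30 min by the caller's setting.

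Interferon-stimulated genes were the group that most often had a SOCS1 site at 8 h and not at 30 min. Of 30 listed genes, 27 had a site within 10 kb at 8 h and 19 at 30 min, whereas 38.6% and 47.7% of all 21887 protein-coding genes did. A site at 8 h only was found at 10 of the 30, against 6.24% of all genes. A site at 30 min only was found at 2 of the 30, against 15.4% of all genes. The other 17 with a site had one at both times, beside 32.4% of all genes. Within 10 kb of these genes lay 42 sites called at 8 h only, 15 called at 30 min only and 10 called at both.

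The 10 genes with a site at 8 h only were Ifit1, Isg15, Oas1a, Oas2, Gbp7, Cmpk2, Ifi44, Ifi47, Bst2 and Zbp1. Ifit1, which binds viral RNA, had the strongest, with 43.6 normalized tags (tags in the peak, repeats included, scaled to a library of 10 M) at chr19:34640897-34641157, a clonal fold of 1.49, and no overlapping peak in the SOCS1 WT control list or in the LPS lists of SOCS1 in KO cells and p65 in WT cells. Ifi47, an interferon-inducible GTPase, had 36.3 in its body at chr11:49087042-49087302. Gbp7, a guanylate-binding protein, had 3 such sites, of 32.1, 20.5 and 17.3. Zbp1, a sensor of Z-form nucleic acids, had 1 site at chr2:173219057-173219317, and Isg15, the ubiquitin-like modifier, had 28.4 and 22.1. Bst2, which tethers budding virus, had 4 sites between 16.3 and 28.4, and Ifi44 had 4 between 9.46 and 14.7. The weakest of these values are close to the lowest tag count of the 30 min list, 7.18. Every 8 h peak lies above that value, since the lowest tag count at 8 h was 8.41. Lying above it therefore does not show that a site could have been called at 30 min. The 2 genes with sites at 30 min only were Ifih1, the RNA sensor MDA5, with 13.3, 20.5 and 20.5, and Rsad2, the antiviral enzyme viperin, with 2 sites, the weaker of 11.3.

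At sites called at both times, 7 of the 11 interferon-stimulated genes with such a site had more tags at 8 h. The median log2 ratio of 8 h over 30 min tags was 0.44 for these genes and -0.68 over the 4752 genes with such a site. Gbp2 stood out, with 70.5 normalized tags at 8 h and 24.1 at 30 min, a ratio of 2.98 (1.83 to 5.02). Ifit2 and Ifit3 share a peak with 30.5 at 8 h and 21.0 at 30 min, a ratio whose interval includes 1 (0.812 to 2.77). Stat2, a subunit of the interferon-activated factor, had fewer tags at 8 h, 46.8 against 73.4 at 30 min, a ratio of 0.640 (0.431 to 0.942). That peak lies 5880 bp from Stat2 but 649 bp from Il23a, and it counts for Il23a in the cytokine list too. Irf9, the DNA-binding partner of STAT2, had 59.4 at 8 h and 74.9 at 30 min (0.545 to 1.13). The interval of the ratio excluded 1 for Gbp2 on the high side and Stat2 on the low side among these 11. With the authors' score per tag kept, which counts each position once, the median was 0.19 and the same number of genes, 7, was above 0. Without peaks whose fold over the clonal expectation was 1.5 or more, 27 genes had a site at 8 h and 17 at 30 min, beside 37.4% and 33.2% of all genes, so that under this limit all genes too had sites more often at 8 h. When a peak had to exceed the surrounding 10 kb by 8-fold, 13 genes had a site at 8 h and 11 at 30 min, beside 28.8% and 41.4% of all genes.

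In KO cells the count of genes with a SOCS1 site was also higher at 8 h. The numbers of interferon-stimulated genes with such a site were 26 of 30 in KO cells at 8 h and 20 at 30 min, beside 44.6% and 51.0% of all genes. They were 7 in WT control cells, beside 32.4%, and 18 in KO control cells, beside 12109 of all 21887 genes. For p65 in WT cells they were 30 and 29, beside 55.9% and 61.9%, too near all 30 genes to show a difference between the times. At p65 sites called at both times the median log2 ratio was 0.35 for 24 of these genes and -0.68 over all 9631 genes with such a site, and at SOCS1 sites in KO cells it was 0.58 for 16 genes and -0.47 over 6147. The p65 and SOCS1 lists of one genotype and time were called against the same IgG library, so these values do not stand apart from the SOCS1 ones. Of the 42 sites at 8 h only, 19 overlapped a p65 peak at 8 h, 12 a SOCS1 peak in KO cells at 8 h and 7 one in KO cells at 30 min. These are 45.2%, 28.6% and 16.7%, each below the share over all sites at 8 h only, 56.4%, 34.6% and 31.6%.

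**Figure D1:**
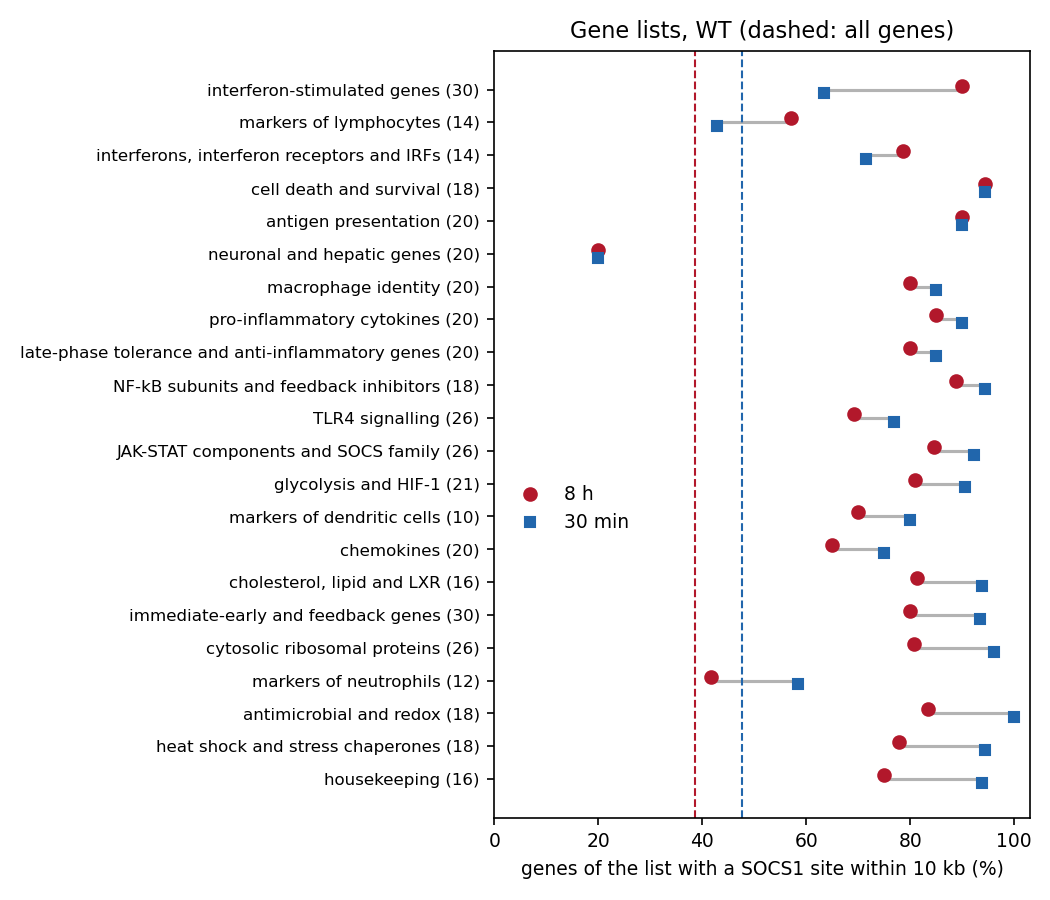
Share of each gene list with a SOCS1 site within 10 kb in WT macrophages at 8 h (red circles) and 30 min (blue squares) of LPS, in percent, with the number of genes in parentheses and all protein-coding genes as dashed lines (38.6% at 8 h, 47.7% at 30 min). Interferon-stimulated genes had the largest excess at 8 h of these 22 lists, 27 against 19 of 30 genes.

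Among promoters, a SOCS1 peak at 8 h only overlapped 1385 of the 32851 RefSeq promoter windows (250 bases before to 50 after a start), one at 30 min only 2022 and peaks of both times 1356. The ISRE core was in 10.0% (8.50 to 11.7) of the windows with 8 h only, in 6.78% (5.72 to 7.96) of those with 30 min only, in 8.41% of those with both and in 8.56% of all windows. Of the other 11 motifs searched, the GC box GGGCGG was in 62.2% and 64.8% of the windows with 8 h only and 30 min only and in 35.7% of all, and the NRF1 motif GCGCATGC in 5.92%, 6.73% and 2.71%. The NF-κB motif was in 5.27%, 6.38% and 4.51%. Median GC content was 59.7% at 8 h only and 61.3% at 30 min only, against 51.3% in windows with neither. Among interferon-stimulated genes in the promoter table, 7 had the window overlapped at 8 h only, and 6 of these held an ISRE core: Gbp5, Gbp7, Ifi44, Ifit1, Ifit3 and Isg15. At 30 min only the numbers were 3 of 5, namely Igtp, Irgm1 and Rsad2, while 17 of all 26 such genes held the core in some window. For Ifit3 the 30 min peak stops short of the window and overlaps the 8 h peak, so its site counts as called at both times.

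Heat shock and chaperone genes had the lowest median ratio of the lists with at least 5 genes to compare. At sites called at both times the median log2 ratio of tags was -1.51 over 9 genes, all 9 had fewer tags at 8 h, and 6 were at least 2-fold lower, beside 31.9% of all genes with a shared site. Hspa1b and Hspa1a, which encode the inducible chaperone HSP70, had 116.7 and 78.3 normalized tags at 8 h, against 355.1 and 174.5 at 30 min. The ratio was 0.329 (0.263 to 0.408) at Hspa1b and 0.446 (0.335 to 0.589) at Hspa1a. These genes are near-identical copies, and the peaks lie outside the gene bodies, 3654 and 371 bp away. The peak 3654 bp from Hspa1b lies 304 bp from an annotated start, which is not that of Hspa1b. A different peak, 309 bp from Hspa1b, was called at 8 h only, with 69.4, which is the opposite order. Hsp90b1, the chaperone GRP94 of the endoplasmic reticulum, had 24.2 at 8 h and 103.7 at 30 min. Bag3, an HSP70 co-chaperone, had 13.1 at 8 h and 51.8 at 30 min. Dnajb1, another HSP70 co-chaperone, had 9.46 at 8 h and 33.4 at 30 min. Hsph1, which encodes HSP110, had 160.6 at 30 min and no site at 8 h, the strongest gene of that class.

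These differences shrank when repeats were set aside. With the score per tag kept, the median was -0.95, against -0.64 over all genes, and 4 of the 9 genes were at least 2-fold lower, beside 25.7% of all genes. The fold over the clonal expectation was 1.47 at 8 h and 1.87 at 30 min at Hspa1b. IgG held 9 tags under the Hspa1a peak at 8 h and 31 at 30 min. It held 0.5 and 10 at Hsp90b1, 0.5 and 5 at Bag3 and 1 and 4.5 at Dnajb1, but 8.5 and 5 at Hspa1b. Of 18 genes in the list, 14 had a site at 8 h and 17 at 30 min. Without peaks whose clonal fold was 1.5 or more the order turned, with 14 at 8 h and 10 at 30 min, as it did over all genes (37.4% and 33.2%). The part of repeats in the difference was not tested. In KO cells the median at sites called at both times was -0.73 over 9 genes, beside -0.47 over 6147 genes. It was not the lowest there: ribosomal protein genes had -0.92 and cholesterol genes -0.74.

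**Figure D2:**
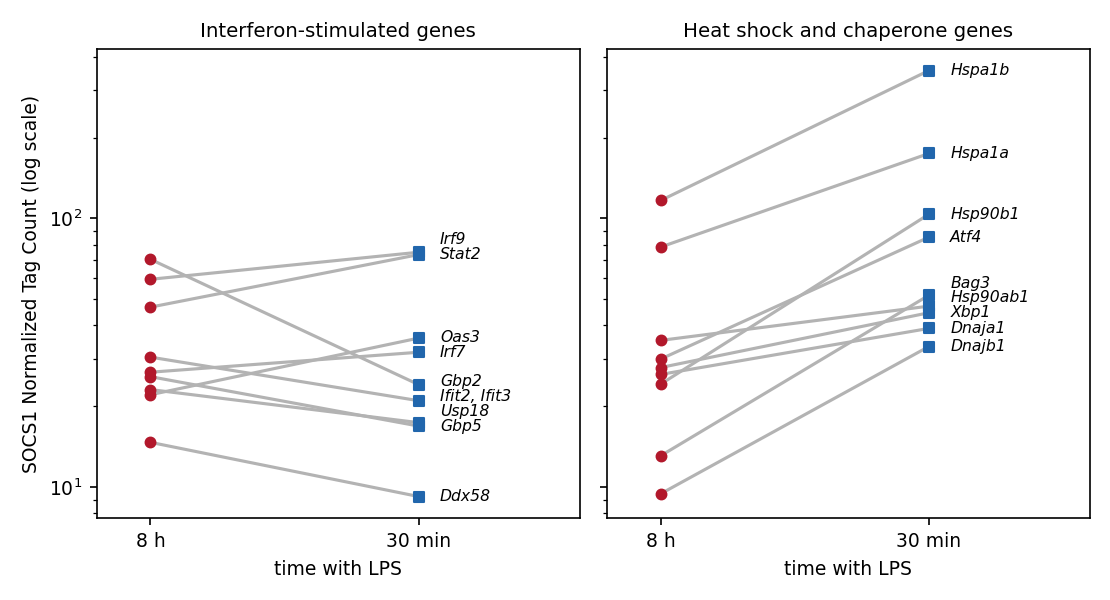
SOCS1 Normalized Tag Count (log axis) in WT cells at 8 h (red, left) and 30 min (blue, right) for genes with a site called at both times, with 1 library a time and lines joining a gene's values. Of the 10 interferon-stimulated genes drawn, 6 were higher at 8 h (Ifit2 and Ifit3 share a peak), and all 9 heat shock and chaperone genes were lower.

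NF-κB and cytokine genes gave mixed pictures. Among 18 genes for NF-κB subunits or its feedback inhibitors, 16 were near a site at 8 h and 17 at 30 min. Over all protein-coding genes the shares were 38.6% and 47.7%, here and for the lists below. The median log2 ratio at the 10 NF-κB genes with a shared site was -0.38, a smaller fall than the -0.68 over all 4752 genes with one. With the score per tag kept these were closer, -0.58 and -0.64. Nfkbia, which encodes the inhibitor IκBα, had 67.2 normalized tags at 30 min only, and Otulin, a deubiquitinase, 61.6. Rela, the gene of p65 itself, had 20.0 at 8 h only. Tnip1, which encodes a partner of the inhibitor A20, had 152.5 at 8 h and 91.3 at 30 min, a ratio of 1.67 (1.27 to 2.20), and was the 1 gene of the list whose interval lay above 1.

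Of 20 inflammatory cytokines, 17 had a site at 8 h and 18 at 30 min. Il1b had 71.5 tags at 8 h and 27.2 at 30 min at a site 9543 bp from the gene (ratio 2.58, 1.63 to 4.19). Ltb, lymphotoxin beta, had 45.2 and 21.0 at a site 8418 bp away. The other 11 genes with a shared site had fewer tags at 8 h. Osm, oncostatin M, had 18.4 at 8 h and 60.0 at 30 min, and Ebi3, a subunit of interleukin heterodimers, had 47.8 and 119.6. Tnf and Lta share a peak, 8167 and 4596 bp away, with 81.5 at 8 h and 102.6 at 30 min, a ratio whose interval includes 1 (0.587 to 1.09). Il12a and Il18 had a site at 8 h only, with 29.4 each, while Lif, Il33 and Csf2 had sites of 11.8 to 14.9 at 30 min only.

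Chemokine genes numbered 13 of 20 at 8 h and 15 at 30 min. The peak near Ccl2 and Ccl7, which recruit monocytes, was the strongest site at least 2-fold higher in tag count at 8 h that lay near a gene, with 154.6 against 69.3 tags (ratio 2.21, 1.65 to 3.00, at chr11:82041748-82042008). With the score per tag kept its log2 ratio was 0.72, short of 2-fold, against 1.16 by tag count. The peak near Cxcl1 and Cxcl2, which recruit neutrophils, was lower, with 33.1 at 8 h and 82.1 at 30 min (ratio 0.397, 0.253 to 0.608). Ccl3 and Ccl4 share a peak with 105.7 and 119.0. Cxcl10 and Cxcl9, which interferon induces, had sites at 30 min only, of 34.4 and 22.6.

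Among immediate-early and feedback genes, 24 of 30 had a site at 8 h and 28 at 30 min. The median log2 ratio at 16 of them was -0.48, beside -0.68 over all genes with a shared site. With the score per tag kept the order turned, with -0.70 beside -0.64. Egr2, a zinc finger factor, had 37.9 at 8 h and 126.7 at 30 min. A peak 7945 bp from Dusp1, a MAP kinase phosphatase, had 72.0 and 166.3. Klf6 with 51.3 and Atf3 with 45.2 had sites at 30 min only, and Dusp2 with 34.7 at 8 h only.

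Genes of the JAK-STAT pathway, on which SOCS1 acts, had sites at most members at both times, 22 of 26 at 8 h and 24 at 30 min. The Socs1 gene itself had 1 site, 232 bp from the gene, with 38.9 normalized tags at 8 h and 41.6 at 30 min, a ratio of 0.925 (0.577 to 1.48). Socs3 had 49.4 and 58.0. Cish, another member of the family, had 42.6 at 8 h and 76.5 at 30 min, a ratio of 0.560 (0.373 to 0.830). Tyk2, a JAK kinase of the interferon receptor, had the strongest site of all those called at 8 h only, 208.2 tags at 4583 bp from the gene, and Ptpn6, the phosphatase SHP-1, had one of 114.6. Each gene also had a site called at both times, with 54.2 at 8 h and 75.4 at 30 min at Tyk2 (ratio 0.730, 0.501 to 1.06) and 11.6 and 27.7 at Ptpn6. Jak1 with 30.3, Jak2 with 23.1 and Socs7 with 66.2 had sites at 30 min only. Of the interferon, receptor and IRF genes, 11 of 14 had a site at 8 h and 10 at 30 min. Irf3 with 51.5 and Ifnar1 with 22.1 had it at 8 h only, and Ifnb1, the interferon beta gene, had 15.9 at 30 min only. Ifngr1, a receptor chain of interferon gamma, had 33.1 at 8 h and 118.5 at 30 min. A peak 6116 bp from Irf1 had 83.6 and 168.3.

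Apart from markers of lymphocytes, with 8 of 14 at 8 h and 6 at 30 min, the other lists had as many or fewer genes with a site at 8 h. TLR4 signalling genes numbered 18 of 26 at 8 h and 20 at 30 min, with Traf3, an adaptor, at 25.8 against 99.0 tags. Late-phase tolerance genes numbered 16 and 17 of 20, with Nos2 and Il10 at 23.7 and 11.6 at 8 h only. A peak 6076 bp from Tgfb1, also linked to B9d2 and Tmem91, had 143.5 against 317.6. Antigen presentation genes numbered 18 of 20 at each time, and Tap1 and Psmb9 share a peak of 68.9 at 8 h and 163.2 at 30 min. Glycolysis and HIF-1 genes numbered 17 and 19 of 21, with 6 of 14 at least 2-fold lower and Hk1, a hexokinase, at 33.1 against 89.8. Their median was -0.95, beside -0.68 over all genes with a shared site. Cytosolic ribosomal protein genes numbered 21 and 25 of 26, with a median of -0.98, and Rpl7 at 126.7 against 491.1. Housekeeping genes numbered 12 and 15 of 16, and 5 of 9 with a shared site were at least 2-fold lower, against 31.9% of all genes with a shared site, a share that applies to the glycolysis genes too. Without peaks whose clonal fold was 1.5 or more, ribosomal genes with a site numbered 18 at 8 h and 12 at 30 min, an order that turned for all genes as well.

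Of the 13 macrophage identity genes with a shared site, 3 had more tags at 8 h and 10 had fewer. Their median log2 ratio was -0.54, beside -0.68 over all genes with a shared site, and -0.61 beside -0.64 with the score per tag kept. The interval of the ratio lay above 1 at 3 of the 13 and below 1 at 6. Fcgr1, the high-affinity receptor for IgG, had 74.1 at 8 h and 39.5 at 30 min (a ratio of 1.89, whose interval lies above 1). Spi1, the gene of the macrophage factor PU.1, had 82.0 at 8 h and 51.3 at 30 min (1.11 to 2.33), and Mitf 129.9 and 87.2 (1.13 to 1.99). Adgre1, which encodes F4/80, had 45.7 at 8 h only, and Cebpb 20.0 at 30 min only. Cholesterol genes numbered 13 and 15 of 16, cell death genes 17 at each time of 18, and antimicrobial and redox genes 15 and 18 of 18.

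Across all sites, 8408 were called at 8 h only, 61.3% of the 8 h list, and 5312 peaks overlapped a 30 min peak, 38.7% (37.9 to 39.5). At 30 min 14317 were called at that time only, 72.9% of the list, and 5314 overlapped an 8 h peak, 27.1% (26.4 to 27.7). These counts moved with the settings. With the 30 min list cut to the length of the 8 h list, 8888 sites were called at 8 h only and 8887 at 30 min only. Lists of equal length give near-equal counts by construction. With clonal folds below 1.5, the counts were 10836 and 7928. That limit lies near the median clonal fold at 30 min, 1.48, against 1.15 at 8 h, and so removes more 30 min peaks. Neither setting therefore decides about the excess at 30 min. The share called at both times moved with strength. With each list cut into 4 equal groups by tag count, it was 23.4% in the weakest group at 8 h and 58.7% in the strongest, against 7.40% and 57.4% at 30 min. Of the 100 strongest sites, 68 at 8 h and 92 at 30 min were called at the other time too. Sites called at both times had a median of 23.1 normalized tags at 8 h and 32.8 at 30 min, and sites called at 1 time only 16.8 at 8 h and 16.9 at 30 min.

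**Figure D3:**
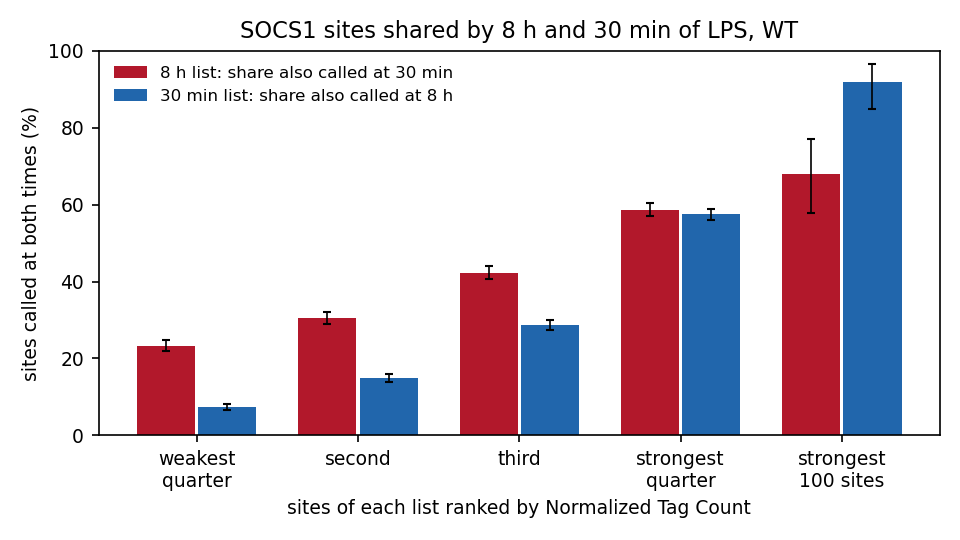
Share of SOCS1 sites called at both times, in percent, by 4 equal groups of Normalized Tag Count and for the 100 strongest sites of the 8 h list (red) and the 30 min list (blue) in WT cells; bars are shares and whiskers exact 95% binomial intervals. The share is 23.4% in the weakest and 58.7% in the strongest group at 8 h, and 7.40% and 57.4% at 30 min.

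Among genes with a site at 8 h and none at 30 min, Ptges2, a prostaglandin E synthase, had the strongest, with 166.1 normalized tags at chr2:32395866-32396126. That peak also lies 8257 bp from Lcn2, the iron-scavenging lipocalin of the antimicrobial list, which has another site at 30 min. The peak at Upf2, a factor of nonsense-mediated decay, and Dhtkd1 had 142.5, that at Cactin and Tbxa2r, the thromboxane receptor, 142.0, that at Slc35b1 130.4, that at Brat1 and Iqce 113.0, and that at Supv3l1, a mitochondrial helicase, 112.5. At these 6 sites the clonal fold reached up to 1.81, against a median of 1.15 over the 8 h list. Of the 100 strongest sites at 8 h only, 38 had a clonal fold of 1.5 or more, against 3.22% of all sites at 8 h only. Of the same 100, 41 overlapped a WT control peak and 66 a KO peak at 30 min, whereas 16.4% and 31.6% of all sites at 8 h only did. Among genes whose strongest site had a clonal fold below 1.5, a choice made after the values were seen, a peak at Ccdc189, Phkg2 and Rnf40 led with 98.3, followed by Abhd11 with 95.2 and Capn10 with 87.8.

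Among genes with a site at 30 min and none at 8 h, Hsph1 led with 160.6 tags. Pdlim7, a cytoskeletal adaptor, followed with 130.3, and a peak at Banp and Car5a had 124.7. A peak 8337 bp from Siglecg, an inhibitory sialic acid receptor, had 121.6. Orm1, an acute-phase protein, had 120.1, and Garnl3 119.0. IgG held 23 tags under the Hsph1 peak and 18.5 under that of Garnl3. Of the 100 strongest sites at 30 min only, 88 had a clonal fold of 1.5 or more, against 44.9% of all sites at 30 min only. Lpp, a long gene, carried the most sites called at 8 h only, 16, along with 17 called at 30 min only. Asph and Creb5 followed with 10 each at 8 h only, and Trps1 had the most at 30 min only, 18.

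At the 5312 sites called at both times, tag counts were lower at 8 h at 75.6%. The median log2 ratio was -0.51 (-0.53 to -0.48), 0.704 of the 30 min value. Of these sites 144, or 2.71%, were at least 2-fold higher at 8 h and 1289, or 24.3%, at least 2-fold lower. A lower tag count does not tell fewer cells with SOCS1 at a site from less SOCS1 per cell. The authors scaled each library to its total tags, so a ratio is relative to the rest of the library. Centred on the median, 484 sites were 2-fold higher and 453 lower. The ratio was lowest at the strongest sites, with a median of -0.77 in the strongest of 4 equal groups by mean of the log values and -0.20 in the weakest. Cic, a transcriptional repressor, had the highest tag count at both times, 349.1 at 8 h and 851.3 at 30 min. Next in tag count among gene-linked sites 2-fold lower were those at Rpl7 and Rdh10, at Mnt and Mettl16 with 99.4 against 385.9, at Tef with 96.2 against 380.2, and at Rps27a, Clhc1 and Mtif2 with 134.6 against 378.2. Among those 2-fold higher, a peak at Siglece and Ctu1 had 128.8 at 8 h and 44.1 at 30 min, Lrp1, an endocytic receptor, 123.6 and 47.7, Tm9sf4 110.9 and 46.7, and Lpp 103.6 and 35.4. With the score per tag kept, the log2 ratio was 0.88 at Siglece and Ctu1 and 0.88 at Lrp1, short of 2-fold. It was 1.09 at Tm9sf4 and 1.32 at Lpp.

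**Figure D4:**
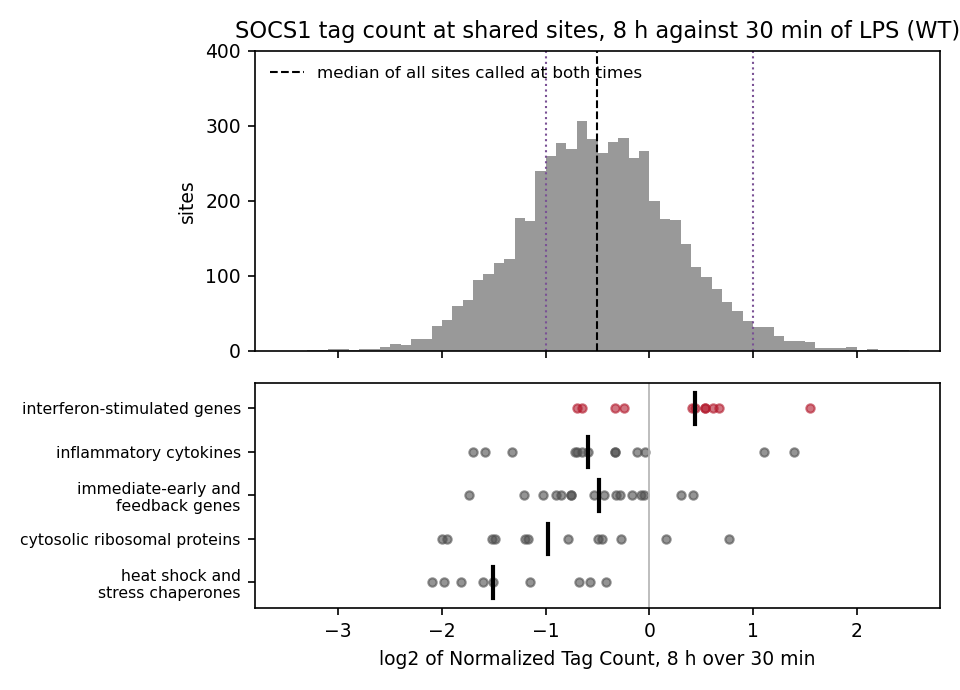
Log2 ratio of SOCS1 Normalized Tag Count, 8 h over 30 min, at the 5312 sites called at both times (top, histogram; dashed line, median -0.51; dotted lines, 2-fold; values beyond the axis drawn at its ends) and at the genes of 5 lists (bottom; points, genes; bars, medians). Interferon-stimulated genes have a median of 0.44 and heat shock and stress chaperones of -1.51.

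Sites that were higher and lower at 8 h differed in how many lay near a gene end. A protein-coding gene ended or began within 1 kb of 9.72% (5.42 to 15.8) of the 144 sites 2-fold higher and of 45.0% (42.3 to 47.8) of the 1289 that were 2-fold lower. For the 3879 sites in between the share was 29.1%. Over the whole 30 min list it rose with tag count, from 17.9% in the weakest of 4 equal groups to 38.1% in the strongest. The part of strength in the difference was not tested. Where the strand of the gene is given, 96.6% of the nearest ends at the lower sites were gene starts. The median distance to a gene end was 16345.5 bp at the higher sites and 1701 bp at the lower ones. At sites called at 1 time only the shares were closer, 22.7% (21.8 to 23.6) near a gene end at 8 h only and 25.6% (24.9 to 26.3) at 30 min only, beside 32.4% of the sites called at both times.

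SOCS1 sites at both times lay largely where p65 was called. Of the sites called at both times, 81.7% (80.6 to 82.7) overlapped a WT p65 peak at 8 h and 80.5% one at 30 min. Of the sites at 8 h only, 56.4% (55.4 to 57.5) overlapped a p65 peak at 8 h and 42.0% one at 30 min. Of those at 30 min only, 30.3% (29.6 to 31.1) overlapped a p65 peak at 8 h and 42.8% (42.0 to 43.7) one at 30 min. The SOCS1 and p65 lists of a time share their IgG library, whereas those of different times do not. Strength moved with this share: at sites of 8 h only, p65 at 8 h was called at 1139 of 2629 in the weakest of 4 groups and at 1062 of 1416 in the strongest. Where p65 too was called at both times, its own median log2 ratio was 0.48 at the SOCS1 sites 2-fold higher at 8 h and -0.94 at those 2-fold lower. It was -0.50 at the shared SOCS1 sites in between and -0.51 over all 16697 p65 sites called at both times. It was -0.37 at the 2718 sites of SOCS1 at 8 h only and -0.73 at the 3311 at 30 min only.

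In KO cells, SOCS1 peaks at 8 h overlapped 34.6% of the sites at 8 h only, against 18.4% of those at 30 min only, and KO peaks at 30 min overlapped 31.6% and 27.7%. Of the sites called at both times, 53.3% were in the KO list at 8 h and 62.9% in that at 30 min. WT control peaks overlapped 16.4% of the sites at 8 h only, 11.1% of those at 30 min only and 30.3% of those at both times. At the 6738 sites called at both times in KO cells the median log2 ratio was -0.38, also below 0.

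**Figure D5:**
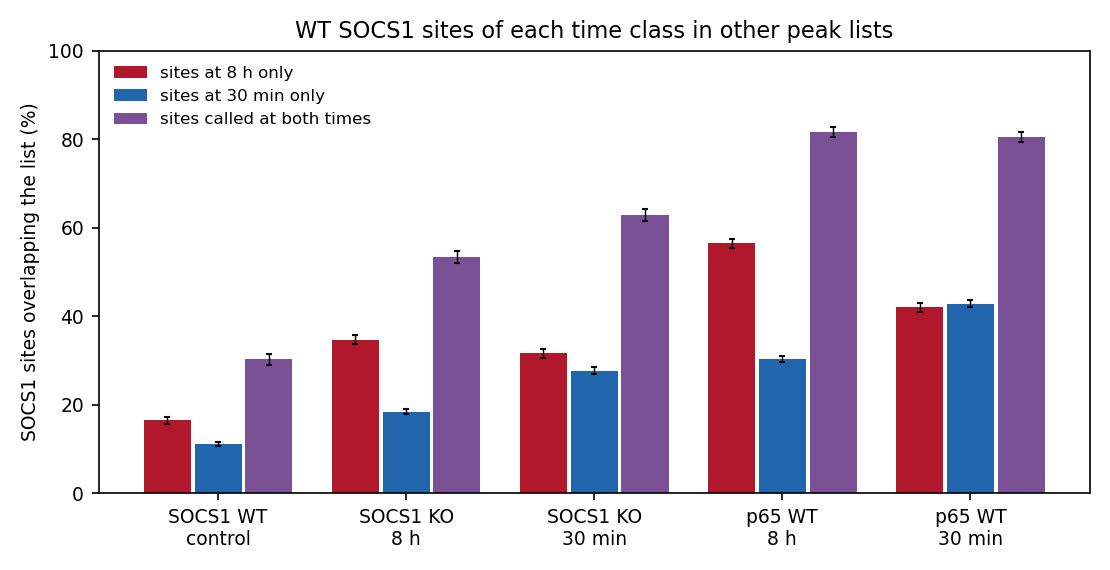
Share of WT SOCS1 sites, in percent, that overlapped a peak of 5 other lists by at least 1 bp, for sites at 8 h only (red), 30 min only (blue) and both times (purple); whiskers are exact 95% binomial intervals. Sites called at both times had the highest share in every list shown, 81.7% for p65 at 8 h, and sites at 8 h only met p65 at 8 h at 56.4%, against 30.3% for those at 30 min only.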

How the data were processed

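The members, gene lists and motifs were chosen with earlier results of these data known; the heat shock motif, the clonal limit, the score per tag kept and links by gene ends were added after the values were seen. The 12 peak lists were called by the authors with findPeaks of HOMER in its factor mode, 1 library a list, with IgG of matching genotype and time as background, per the file headers; HOMER 4.11, Bowtie2 2.4.1 and cutadapt are named in the submitters' processing notes. The call required an FDR of 0.001, tags 4-fold above IgG and 4-fold above the local 10 kb, and a clonal limit of 2, per the file headers. The deposited signal is the Normalized Tag Count, tags per 10000000, with repeats counted. The deposited score is tags under a limit of 1 per bp, not scaled. The deposited ratios are each peak's fold over IgG, local background and clonal expectation, its p-value is the authors' Poisson p, and the fraction is their focus ratio; the last 2 entered no comparison. An E. coli spike-in that the labels mention was not used here.

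Peaks were linked to the 21887 RefSeq protein-coding genes of mm10 (GRCm38.p6) whose body or ends lay within 10 kb of the peak centre, and 79.9% of these had a promoter window. Peaks shared by neighbours count for each gene. Of sites called at both times, the strongest peak of each list formed 1 pair per merged site, and a gene took its pair with the highest tag count. Intervals are exact binomial (Clopper-Pearson for shares; the split of unscaled tags for ratios), cover counting error only, and rest on tags that include repeats. The rule for named genes took the 6 strongest sites of each class near a gene, the 3 genes with the most sites of 1 time only, and up to 4 members of each class in each of 22 lists with 433 entries, all found, outside chromosome 18. From these the text names some, and it adds list members that were chosen after the values were seen. Motifs were searched on both strands. Site pairing and gene links were tested on simulated data. Python 3.11.15, pandas 2.3.3 and scipy 1.17.1 were used. Of the list members, 1 interferon-stimulated gene that counts in its list is not reported by name and is not drawn.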

Additional observations from a re-analysis of the deposited data

How the results depend on the processing

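No paired analysis was possible because each time had 1 library, and for the same reason none could be left out. Of the recomputed main values, 31 stayed within 1.5 times (counts) or inside the main interval (shares and medians), 36 did not, and no sign turned. Sites at 8 h only came to 4495 with peaks at least 8-fold above local background and to 5603 with at least 2 times the lowest tag count of the 30 min list. Sites at 30 min only came to 7335 under that tag limit, to 8887 with the 30 min list cut to the length of the 8 h list and to 7928 with clonal folds below 1.5. Sites at 8 h only numbered 8888 at that equal length, which by itself makes the counts of the 2 times nearly equal. They numbered 10836 under the clonal limit, where the order turned. A clonal fold of 1.5 or more was found at 44.9% of all sites at 30 min only and 3.22% of those at 8 h only. The clonal limit thus removes far more of the 30 min list. The share of 8 h sites called at 30 min was 47.3% with centres within 500 bp, 34.9% with overlap of at least 0.5 of the shorter peak, 35.2% at equal length and 18.2% with clonal folds below 1.5. The share of 30 min sites called at 8 h was 33.5%, 24.4%, 35.2% and 23.4% under these, and 22.3% with 8-fold local peaks. The median log2 ratio was -0.47 with centres within 500 bp, -0.58 with 8-fold local peaks, -0.71 per bp of peak width and 0 when centred. Sites 2-fold higher at 8 h numbered 67 with 8-fold local peaks, 78 per bp, 484 when centred and 77 with the score per tag kept, and sites 2-fold lower 797 with 8-fold local peaks and 453 when centred. Genes with a site at 8 h only numbered 3272 with clonal folds below 1.5, against 2349 at 30 min only, so that order turned, and at equal length 2043 against 2218. Genes with a site at both times numbered 11593 within 50 kb. The share of 8 h only sites with p65 at 8 h was 68.1%, 50.5% and 51.7% with centres within 500 bp, overlap of 0.5 and 8-fold local peaks. That of 30 min only sites with p65 at 30 min was 52.4%, 38.9% and 37.2%, and that of sites called at both times with p65 at 8 h 87.8%, 80.5% and 79.4%. The causes were not tested. The calling limits of 10 and 8 tags set what depth can show: a weak site may be missed at either time.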

Other observations

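The 8 h list held fewer peaks than the 30 min list on every autosome, with a ratio of 0.632 to 0.817, and the ratio on the X chromosome was 0.487, with 222 peaks at 8 h and 456 at 30 min. The median log2 ratio at the sites called at both times on the X chromosome was -0.39, against -0.30 to -0.65 on the autosomes.

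In KO cells p65 tags at interferon-stimulated genes were higher at 8 h as well, with a median log2 ratio of 1.05 at 25 genes with a site called at both times beside 0.15 over 9785 genes. Of the 25, 15 were at least 2-fold higher at 8 h, beside 17.3% of all genes.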
